A study of Volvox carteri with 4 samples.

Results

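The genes described here encode the enzymes of the Calvin-Benson-Bassham (CBB) cycle and of fatty acid biosynthesis in the multicellular green alga Volvox carteri. They are the loci that the study's carbon metabolism annotation places on its CBB cycle and fatty acid biosynthesis entries, joined by locus identifier to the deposited count table. By this rule, which uses no expression value, 39 of the 16008 gene models are members, 20 of the CBB cycle and 19 of fatty acid biosynthesis. Gonidia, the large asexual germ cells of a Volvox spheroid, were compared with somatic cells, the small flagellated cells of its surface, with 2 replicate libraries of each cell-type. Both cell-types came from female strain Eve of V. carteri f. nagariensis, taken from hatched adult spheroids at hour 42 of the 48 hr life cycle, 6 hr into the second light period. There was no mutant or treatment, and the groups differ by cell-type and by the steps used to separate it. Separate cultures were used for the 4 preparations, each a pool of cells from several flasks that gave a single cell-type, and the purity of each fraction was judged by eye under a dissecting microscope.

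In the CBB cycle, the chloroplast enzyme Rubisco attaches CO2 to ribulose bisphosphate, the product is reduced to triose phosphate with ATP and NADPH made by the light reactions, and most of the triose phosphate is used to rebuild the acceptor. Fatty acids are built in the same compartment. The chloroplast pyruvate dehydrogenase complex makes acetyl-CoA, acetyl-CoA carboxylase adds a carboxyl group to give malonyl-CoA, and the fatty acid synthase enzymes then lengthen an acyl chain that is carried on acyl carrier protein.

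Gonidial replicates 1 and 2 held 11583555 and 11650101 counted reads, and somatic replicates 1 and 2 held 10838222 and 13104583. CPM is a count scaled to the total of its library. A gene with 0 counts may lie anywhere under a limit of 3 counts, which is 0.229 to 0.277 CPM in these libraries and covers counting error only. The cell-type labels were checked on marker genes. The somatic regulator regA had 1 and 0 counts in gonidial libraries, against 486 and 786 counts in somatic libraries, and the summed level of 83 axoneme genes lay between 1204 and 1268 CPM in gonidial libraries, against 27766 to 31479 CPM in somatic libraries. Another somatic marker, ssgA, had 33 and 40 counts in gonidial libraries, against 63018 and 74766 counts in somatic libraries. The gonidial axoneme sum was 4.17% of the somatic one, and what part of it came from somatic cells in the gonidial fractions was not tested. Of 19 loci of gonidial cDNA clones, which include the CBB cycle gene PGK1, 9 were called gonidial and 2 somatic. This was near the 46.7% of all tested genes called gonidial, and 5 were called gonidial with TMM normalization, beside 38.0%. By calls this list thus did not mark the gonidial libraries. In normalized counts both gonidial libraries lay above both somatic libraries for 17 of the 19, beside 57.2% of all tested genes. The reverse held for 2, beside 33.4%. Their summed level was 87339 and 93033.5 CPM in gonidial libraries, against 53851 and 43766 CPM in somatic libraries. The cell-types were compared by the quasi-likelihood test of edgeR, and p-values were adjusted by Benjamini-Hochberg over the 13350 genes that passed a filter on low counts. Every adjusted p in the text is from this test unless another is named. A gene was called gonidial or somatic at an adjusted p under 0.05 and a difference of at least 2-fold, and specific above 5-fold. Log2 fold changes are gonidia over somatic cells, so that positive values mean higher in gonidia. Because 2 libraries against 2 cannot give a two-sided exact permutation p below 0.33, every adjusted p rests on the spread that the model shares across genes. Levels are shares of each library's RNA, and in such bulk preparations fewer cells of a type and less RNA per cell cannot be told apart.

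The 2 pathways differed in how far their transcript pools leaned to gonidia. Counts on the 19 fatty acid biosynthesis loci made up 1.70% and 1.65% of all counts in gonidial libraries, against 0.276% and 0.320% in somatic libraries, with means of 1.67% ± 0.0341 and 0.298% ± 0.0309 (SD, n = 2 each). The gonidial share was 5.61 times the somatic share. For the 20 CBB cycle loci the shares were 7.22% and 7.58% in gonidial libraries, against 6.37% and 5.34% in somatic libraries, a ratio of 1.26. Gonidial libraries lay above somatic libraries in both pathways. Within a library, where no scaling between libraries enters, fatty acid biosynthesis counts were 23.5% and 21.7% of CBB cycle counts in gonidial libraries, compared with 4.34% and 5.99% in somatic libraries.

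**Figure D1:**
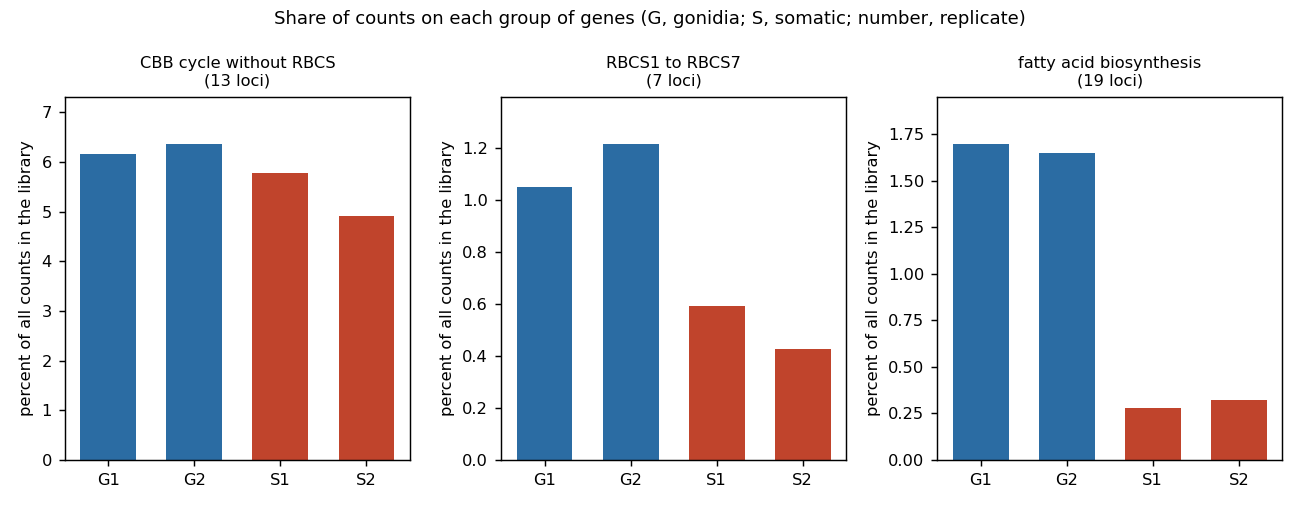
Bars give the percent of all counts of each library that fell on the 13 CBB cycle loci other than RBCS, on the 7 RBCS loci and on the 19 fatty acid biosynthesis loci (left to right), for gonidial replicates (G1, G2, blue) and somatic replicates (S1, S2, red), each panel with its own vertical scale. The gonidial bars stand 5.61 times as high as the somatic bars on average for fatty acid biosynthesis and 1.17 times for the CBB cycle without RBCS.

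Of the 20 CBB cycle genes, all of which were tested, 14 were called gonidial and 0 somatic, beside 46.7% and 26.0% of all tested genes. At an unadjusted p under 0.05, 1 gene (RBCS1) was lower in gonidia, and the DESeq2 Wald test called 14 gonidial and 0 somatic, beside 44.3% and 24.7%. Their median log2 fold change was 1.21 (2.31-fold), which is 0.35 above the median of 0.85 over all tested genes. Of the 19 fatty acid biosynthesis genes, 18 passed the filter, and 16 of these were called gonidial and 0 somatic, with 0 lower in gonidia at an unadjusted p under 0.05 and 0 called somatic by the DESeq2 Wald test. Their median was 2.86 (7.26-fold), 2.01 above that of all tested genes. Specific genes, those over 5-fold higher in gonidia, numbered 4 in the CBB cycle and 14 in fatty acid biosynthesis, beside 29.1% of all tested genes. With TMM normalization there were 3 and 9, beside 22.0% of all tested genes, and with DESeq2 size factors 3 and 7, beside 20.7%. The word specific refers to the library sizes of the methods unless another scaling is named.

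The size of each log2 fold change depended on how the 4 libraries were scaled to each other. The study's methods take as library size the total of counts without the genes above the 0.3% upper quantile, which is used here, and under it the median of all genes was 0.85. It was 0.26 with TMM normalization and 0.14 with DESeq2 size factors, methods that assume that most genes do not differ. With TMM normalization 8 of the 20 CBB cycle genes were called gonidial, beside 38.0% of all genes, and with DESeq2 size factors 7 were, beside 36.2%, so that under these scalings the CBB cycle share lay near that of all genes. RBCS1 was then called somatic, as were 32.2% of all genes with TMM normalization and 33.6% with DESeq2 size factors. With plain totals 11 CBB cycle genes were called gonidial and 1, again RBCS1, somatic, beside 44.8% and 27.0%. A test against a 2-fold difference (edgeR glmTreat) called 8 CBB cycle genes gonidial and 0 somatic, beside 40.7% and 22.6%, and 16 fatty acid biosynthesis genes gonidial. For fatty acid biosynthesis, TMM normalization gave 16 and DESeq2 size factors 15 of 18 called gonidial. The median of the pathway was 2.01 above that of all genes under both.

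**Figure D2:**
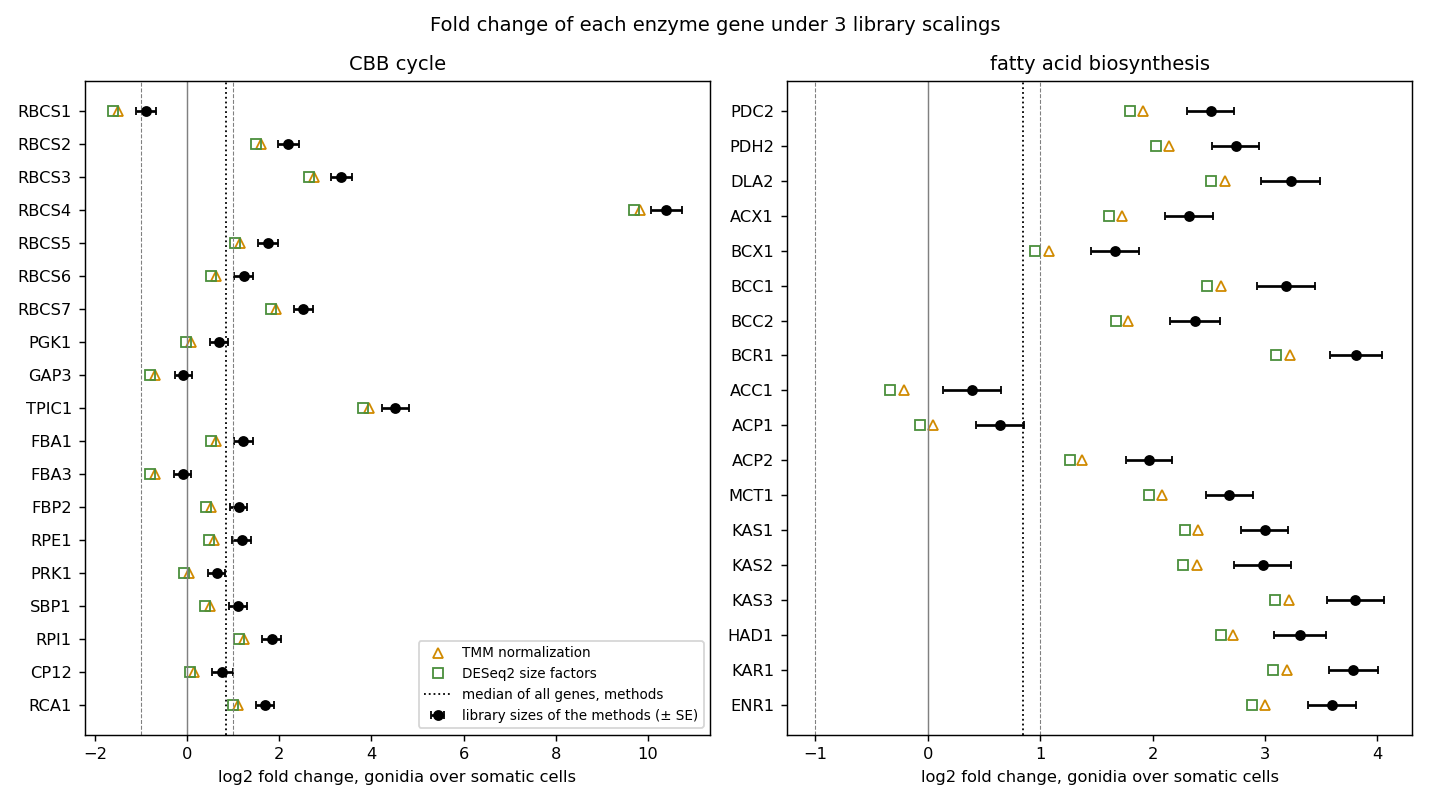
Points give the log2 fold change, gonidia over somatic cells, of the tested CBB cycle genes with values in the text (left) and of the tested fatty acid biosynthesis genes (right), with bars for ± SE, from edgeR with the library sizes of the methods (black circles), TMM normalization (open triangles) or DESeq2 size factors (open squares). The dotted line is the median of all genes (0.85) and the dashed lines mark 2-fold. Most fatty acid biosynthesis genes lie right of the dotted line, whereas CBB cycle genes spread on both sides of it and the RBCS4 point lies at 10.40.

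The first step of the CBB cycle is carried out by Rubisco, whose small subunit is encoded by the nuclear RBCS genes and whose catalytic large subunit is encoded in the chloroplast genome. The small subunit members are 7 paralogs with nearly consecutive locus numbers, RBCS6 (Vocar.0033s0065), RBCS7 (Vocar.0033s0066), RBCS3 (Vocar.0033s0067), RBCS2 (Vocar.0033s0068), RBCS4 (Vocar.0033s0069), RBCS1 (Vocar.0033s0070) and RBCS5 (Vocar.0033s0072). The locus numbered between RBCS1 and RBCS5, Vocar.0033s0071, had 0 counts in all 4 libraries, which allows up to 0.277 CPM. Only uniquely mapped reads of 50 bases were counted, so reads from stretches that the paralogs share are missing, and the split of reads between near-identical copies is uncertain. Levels are given as RPKM, reads divided by the length of the gene model and by the total of the library, so that they can be set side by side between genes. Numbers in parentheses after the levels are the log2 fold change, its SE and, where given, the adjusted p.

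RBCS1 stood apart from the other paralogs. Its RPKM was 1420.5 and 1528 in gonidial libraries, against 3578 and 2323 in somatic libraries. The somatic libraries both exceeded the gonidial ones, which was so for 1 of the 20 CBB cycle genes and for 33.4% of all tested genes in normalized counts. The log2 fold change was -0.89 (SE 0.22, adjusted p = 0.00117), short of the 2-fold that a call requires. With TMM normalization it was -1.50, with DESeq2 size factors -1.60 and with plain totals -1.001, each of which was called somatic. The somatic replicates differed by 1.54 times, and without somatic replicate 2 the value was -1.19 and was also called, whereas without somatic replicate 1 it was -0.50. Without gonidia replicate 1 it was -0.80 (adjusted p = 0.058).

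RBCS4 had almost no counts in the somatic libraries. It had 9185 and 10194 counts in gonidial libraries, against 5 and 11 counts in somatic libraries, or 689 and 760.2 RPKM in gonidia, against 0.401 and 0.729 RPKM in somatic cells. Its log2 fold change of 10.40 (SE 0.34, adjusted p = 1.26e-14), or 1348-fold, was the largest of all members. The RBCS4 level in somatic libraries was 0.0521% and 0.0900% of the mean gonidial level in normalized counts. These percentages also bound from above the RBCS4 transcripts of gonidial origin in the somatic preparations.

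The other 5 paralogs were all called gonidial with the library sizes of the methods, beside 46.7% of all tested genes. RBCS3 had 1497 and 1789 RPKM in gonidia, against 195 and 155 RPKM in somatic cells, a log2 fold change of 3.35 (SE 0.23, 10.2-fold). RBCS7 had 2048 and 2349 RPKM in gonidia, against 441 and 390.1 RPKM in somatic cells (2.52, SE 0.21). Both were specific, RBCS7 not with TMM normalization (1.92) or DESeq2 size factors (1.81), and both kept the gonidial call with TMM normalization and DESeq2 size factors. RBCS2, the paralog with the lowest gonidial level, had 419 and 517 RPKM in gonidia, against 112 and 109.7 RPKM in somatic cells (2.20, SE 0.22). RBCS5, the paralog with the highest gonidial level, had 2543 and 2996 RPKM in gonidia, against 1060.3 and 716 RPKM in somatic cells (1.76, SE 0.23). RBCS6 had 1586 and 1899.8 RPKM in gonidia, against 844 and 779 RPKM in somatic cells (1.23, SE 0.20). In each of these 5 both gonidial libraries lay above both somatic ones, as for 57.2% of all tested genes in normalized counts. The RBCS6 value was 0.63 with TMM normalization and 0.52 with DESeq2 size factors, where the gene was no longer called.

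**Figure D3:**
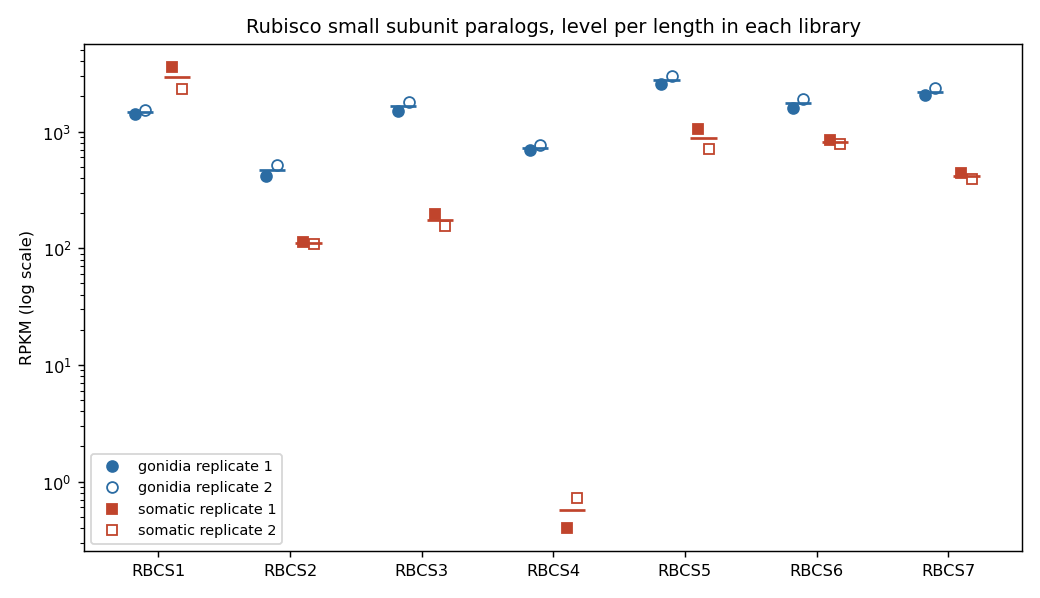
Each symbol is the RPKM of a small subunit paralog in a library on a log axis, with gonidial replicates as blue circles and somatic replicates as red squares (filled, replicate 1, open, replicate 2) and short lines at the cell-type means. RBCS1 is the paralog with somatic symbols above gonidial ones, and RBCS4 falls below 1 RPKM in somatic libraries.

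The make-up of the small subunit pool differed between cell-types. Shares of the summed RPKM of the 7 paralogs are formed within a library and so do not depend on the scaling. RBCS1 held 13.9% and 12.9% of the pool in gonidial libraries, against 57.4% and 51.9% in somatic libraries, with means of 13.4% ± 0.718 and 54.7% ± 3.88 (SD, n = 2 each). In gonidia no paralog held more than 25.3%, and RBCS5 came first with 24.9% and 25.3%, against 17.0% and 16.0% in somatic cells, where it and RBCS6 followed RBCS1. In counts not divided by length RBCS7 came first in gonidia, with a mean of 27.1%, and RBCS5 held 21.6%. RBCS7 held 20.1% and 19.8% in gonidia, against 7.08% and 8.72% in somatic cells. RBCS3 held 14.7% and 15.1% in gonidia, against 3.13% and 3.47% in somatic cells. RBCS4 held 6.75% and 6.42% in gonidia, against 0.00643% and 0.0163% in somatic cells. These 3, and also RBCS5 and RBCS2, took a larger part of the pool in each gonidial library than in either somatic library. Shares within a library are tied, so a larger RBCS1 share leaves less for the others. The share of RBCS6, with 15.5% and 16.0% in gonidia and 13.5% and 17.4% in somatic cells, overlapped between the cell-types. RBCS2 held 4.10% and 4.37% in gonidia, against 1.80% and 2.45% in somatic cells.

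**Figure D4:**
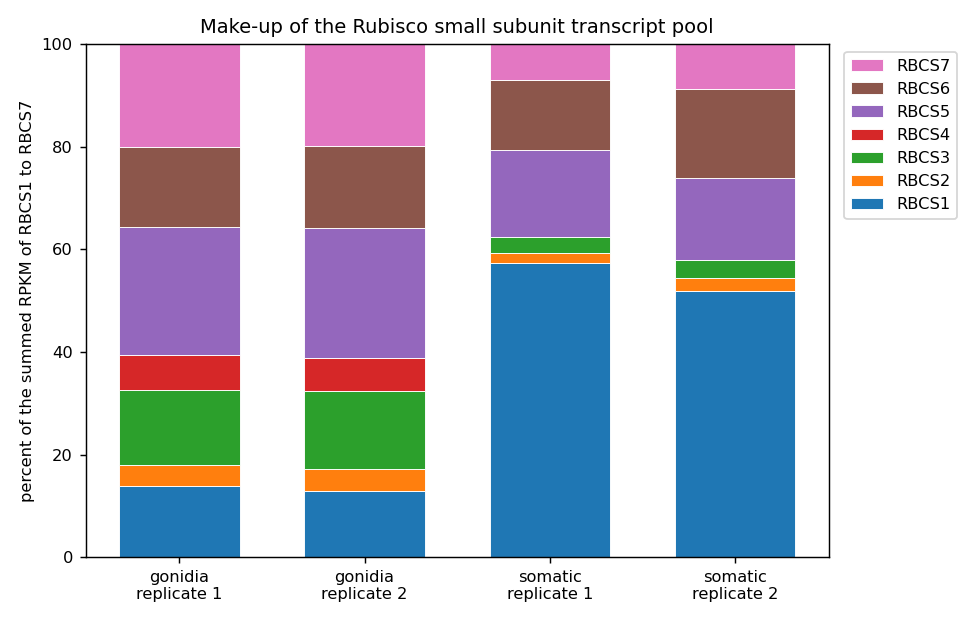
Stacked bars split the summed RPKM of RBCS1 to RBCS7 of each library into percent per paralog, gonidial replicates left and somatic replicates right. The RBCS1 segment covers 13.9% and 12.9% in gonidia and 57.4% and 51.9% in somatic cells, and the RBCS4 segment of somatic cells is too thin to see.

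Summed over the 7 paralogs, the small subunit level was 10202 and 11839 RPKM in gonidia, against 6232 and 4474 RPKM in somatic cells, a ratio of 2.06 between the means. A fit of the summed counts gave a log2 fold change of 1.28 (SE 0.21, adjusted p = 1.69e-05), called gonidial. It was 0.67 (adjusted p = 0.0585) with TMM normalization and 0.56 (adjusted p = 0.0927) with DESeq2 size factors, where it was not called. The sum thus combined 1 paralog that was lower in gonidia with 6 that were higher.

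RCA1, Rubisco activase, which frees the active site of inhibitory sugar phosphates, had 1569.9 and 1571 RPKM in gonidia, against 459 and 599.9 RPKM in somatic cells. It was called gonidial with the library sizes of the methods. Its log2 fold change was 1.69 (SE 0.20, adjusted p = 2e-07) and fell just short of a call with DESeq2 size factors, at 0.99.

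With the library sizes of the methods GAP3 and FBA3 showed the smallest differences of the cycle, and PGK1 a difference under 2-fold. PGK1, phosphoglycerate kinase, which spends ATP on the product of Rubisco, had 3926 and 3134 RPKM in gonidia, against 2426 and 2304 RPKM in somatic cells (0.69, SE 0.19, adjusted p = 0.00239, under 2-fold). Its sign turned to -0.03 with DESeq2 size factors. GAP3, the glyceraldehyde-phosphate dehydrogenase that uses NADPH, had 9191 and 9371 RPKM in gonidia, against 11822 and 9447 RPKM in somatic cells (-0.08, SE 0.19, adjusted p = 0.707). FBA3, the main aldolase, which joins triose phosphates, had 9282 and 9767 RPKM in gonidia, against 11949 and 10125 RPKM in somatic cells (-0.09, SE 0.19, adjusted p = 0.65). For GAP3 and FBA3 the cell-types overlapped in normalized counts, whereas in RPKM and CPM both somatic libraries lay above the gonidial ones. Without somatic replicate 1 the log2 fold changes were 0.13 for GAP3 and 0.07 for FBA3. With TMM normalization they were -0.69 and -0.70, and with DESeq2 size factors -0.79 (adjusted p = 0.0236) and -0.81 (adjusted p = 0.0205), lower in gonidia by less than 2-fold. The size for both genes thus depended on the scaling and on somatic replicate 1. Their sign was negative under each scaling and turned only without somatic replicate 1.

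FBA1, the minor aldolase, was called gonidial (1.22, SE 0.20, adjusted p = 1.74e-05), with 282 and 257 RPKM in gonidia, against 115 and 136 RPKM in somatic cells. Its call was lost with TMM normalization (0.63) and DESeq2 size factors (0.51). FBA3 held 97.1% and 97.4% of the aldolase RPKM in gonidia, against 99.0% and 98.7% in somatic cells. For the summed aldolase counts the log2 fold change was -0.05 (adjusted p = 0.806), without a call. It was -0.66 (adjusted p = 0.0674) with TMM normalization and -0.77 (adjusted p = 0.0249) with DESeq2 size factors, again without a call.

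TPIC1, triose phosphate isomerase, which interconverts the triose phosphates, was the CBB cycle gene with the largest difference outside the RBCS family. It had 80.8 and 78.1 RPKM in gonidia, against 2.79 and 4.70 RPKM in somatic cells, which are 1580 and 1535 counts in gonidial libraries, against 51 and 104 counts in somatic libraries. The log2 fold change was 4.52 (SE 0.28, adjusted p = 2.6e-11), or 22.98-fold, and lay between 4.24 and 4.91 when single libraries were left out. Even in gonidia its level was low for this cycle, and in somatic cells it was the lowest of its enzymes.

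FBP2, SBP1 and RPE1, which act in rebuilding the CO2 acceptor, were each just over 2-fold higher in gonidia with the library sizes of the methods. FBP2, fructose bisphosphatase, had 839.6 and 872 RPKM in gonidia, against 427 and 430.2 RPKM in somatic cells (1.12, SE 0.19). SBP1, sedoheptulose bisphosphatase, had 1956 and 2038 RPKM in gonidia, against 1035 and 978 RPKM in somatic cells (1.11, SE 0.19). RPE1, the epimerase of pentose phosphates, had 1229 and 1446 RPKM in gonidia, against 682 and 593 RPKM in somatic cells (1.19, SE 0.20). In each the gonidial libraries lay above the somatic ones, as for 57.2% of all tested genes in normalized counts. The 3 calls were lost with TMM normalization, where the values were 0.52, 0.51 and 0.59, and with DESeq2 size factors, at 0.41, 0.40 and 0.48. RPI1, the isomerase of pentose phosphates, had 1085 and 1182 RPKM in gonidia, against 338 and 354 RPKM in somatic cells. It was called gonidial (1.84, SE 0.20, adjusted p = 7.3e-08) under these scalings too, at 1.24 and 1.13.

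PRK1, phosphoribulokinase, which makes ribulose bisphosphate from its precursor, had 4595 and 4741 RPKM in gonidia, against 3461 and 3038 RPKM in somatic cells (0.64, SE 0.19, adjusted p = 0.00417, under 2-fold). With DESeq2 size factors its value was -0.07. CP12, a small protein that binds phosphoribulokinase and glyceraldehyde-phosphate dehydrogenase in a complex and holds them inactive in the dark, had 5773 and 8109.6 RPKM in gonidia, against 5220.45 and 3672 RPKM in somatic cells (0.76, SE 0.23, adjusted p = 0.00451, under 2-fold). Among the CBB cycle genes CP12 had the widest spread between gonidial replicates, 1.40 times in CPM. Its log2 fold change passed 2-fold without gonidia replicate 1 (1.02) or without somatic replicate 1 (1.08), and was 0.46 (adjusted p = 0.284) without gonidia replicate 2 and 0.50 without somatic replicate 2. It was 0.16 with TMM normalization and 0.06 with DESeq2 size factors. PRK1, CP12, PGK1, GAP3 and FBA3 were the members above the upper 0.3% quantile in 3 or 4 of the libraries, and none of these 5 was called.

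No CBB cycle enzyme moved by more than 2 places in the order of levels between the cell-types. In gonidia the small subunit sum came first (11020 ± 1158 RPKM), then aldolase (9794 ± 325 RPKM) and GAP3 (9281 ± 127 RPKM). In somatic cells aldolase (11163 ± 1275 RPKM) and GAP3 (10635 ± 1679 RPKM) came first, followed by the small subunit (5353 ± 1243 RPKM, SD, n = 2 each). In gonidia the libraries of these neighbours in the order did not overlap, whereas in somatic cells aldolase overlapped with GAP3 and the small subunit with CP12.

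Fatty acid biosynthesis starts with the chloroplast pyruvate dehydrogenase complex. Its 3 member subunits were called gonidial under each scaling, beside 36.2% to 46.7% of all tested genes. They were specific with the library sizes of the methods, as were 29.1% of all tested genes. DLA2, the E2 subunit, which passes the acetyl group to CoA, had 268 and 222 RPKM in gonidia, against 19.8 and 37.3 RPKM in somatic cells (3.23, SE 0.26). PDH2, the E1 beta subunit, had 386 and 389 RPKM in gonidia, against 58.8 and 67.6 RPKM in somatic cells (2.74, SE 0.21), and PDC2, the E1 alpha subunit, had 346 and 285 RPKM in gonidia, against 54.9 and 65.1 RPKM in somatic cells (2.52, SE 0.21). With TMM normalization PDH2 was at 2.15 and PDC2 at 1.92, under the 5-fold limit. The 3 subunits lay within 1.44 and 1.75 times of each other in gonidial libraries, against 2.97 and 1.81 times in somatic libraries, and DLA2 was the lowest in each library. DLA2 was also the fatty acid biosynthesis gene with the widest gap between somatic replicates, 1.88 times in CPM.

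Acetyl-CoA carboxylase of the chloroplast is built of several subunits. All 5 of their genes were called gonidial with the library sizes of the methods, beside 46.7% of all tested genes. BCR1, biotin carboxylase, which loads CO2 onto the biotin cofactor, had 442.5 and 421 RPKM in gonidia, against 27.6 and 39.7 RPKM in somatic cells. Its log2 fold change of 3.81 (SE 0.23, adjusted p = 1.61e-11), or 13.99-fold, was among the largest of the pathway, together with that of KAS3. BCC1, a biotin carboxyl carrier protein, had 105 and 100.4 RPKM in gonidia, against 9.04 and 15.5 RPKM in somatic cells (3.19, SE 0.26). BCC2, the other carrier protein, had 149 and 173 RPKM in gonidia, against 36.1 and 31.3 RPKM in somatic cells (2.38, SE 0.22). BCC1 held 41.2% and 36.7% of the carrier protein RPKM in gonidia, against 20.01% and 33.2% in somatic cells, where the replicates were far apart.

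The carboxyltransferase subunits, which move the carboxyl group from biotin to acetyl-CoA, were also called gonidial. ACX1, the alpha subunit, had 389 and 335 RPKM in gonidia, against 67.5 and 89.9 RPKM in somatic cells (2.32, SE 0.22), just inside the 5-fold limit for specific genes at 5.01-fold, and differed from BCC2 by less than either SE. BCX1, the beta subunit, had 325 and 308 RPKM in gonidia, against 90.3 and 127 RPKM in somatic cells (1.67, SE 0.21), and its call was lost with DESeq2 size factors, at 0.96. The subunit levels, with the carrier proteins summed, were closer to each other in gonidia. The highest was 1.74 and 1.54 times the lowest in gonidial libraries, against 3.27 and 3.21 times in somatic libraries. BCR1 was the highest of the 4 in gonidia and the lowest in somatic cells. In the order of the 14 enzymes of the pathway by level, BCR1 held place 5 in gonidia and place 11 in somatic cells, and BCX1 place 9 in gonidia and place 3 in somatic cells.

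ACC1, a homomeric acetyl-CoA carboxylase that the study lists with a predicted mitochondrial location, did not follow these subunits. It was the least abundant tested gene of the pathway, with 5.57 and 3.46 RPKM in gonidia, against 3.33 and 4.12 RPKM in somatic cells, and its gonidial counts of 527 and 329 overlapped with the somatic counts of 295 and 441. The log2 fold change was 0.39 (SE 0.26, adjusted p = 0.164), with -0.21 under TMM normalization and -0.33 under DESeq2 size factors. No direction can be given for it.

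Acyl carrier protein, which holds the growing chain, was the most abundant product of the pathway in both cell-types. ACP2 had 3458 and 4094 RPKM in gonidia, against 1059.7 and 1044 RPKM in somatic cells (1.97, SE 0.20, adjusted p = 3.05e-08). ACP1 had 222 and 252 RPKM in gonidia, against 167 and 163 RPKM in somatic cells (0.64, SE 0.21, adjusted p = 0.00957, under 2-fold), and -0.06 with DESeq2 size factors. ACP2 held 94.0% and 94.2% of the summed level in gonidia, against 86.4% and 86.5% in somatic cells. The summed counts were 3.65-fold higher in gonidia (1.87, SE 0.20).

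MCT1, the transacylase that moves the malonyl group onto acyl carrier protein, had 380.3 and 367 RPKM in gonidia, against 62.0 and 64.7 RPKM in somatic cells (2.68, SE 0.21). Its replicates were among the closest of the pathway, and the value lay between 2.67 and 2.69 when single libraries were left out. MCT2, a second locus for this enzyme, had 3 and 0 counts in gonidia, against 1 and 1 counts in somatic cells, was removed by the filter on low counts and is the 1 member without a test. At or under the limit of 3 counts in every library, its part in the enzyme was not detectable at this depth.

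The ketoacyl synthases, which add carbon units to the chain, were all gonidial-specific with the library sizes of the methods and with TMM normalization. Of all tested genes, 29.1% and 22.0% were so. With DESeq2 size factors KAS1 (2.29) and KAS2 (2.27) fell just under the 5-fold limit. KAS1, the main locus, had 914 and 811 RPKM in gonidia, against 102 and 134 RPKM in somatic cells (2.996, SE 0.21). KAS2 had 92.2 and 80.3 RPKM in gonidia, against 9.04 and 14.8 RPKM in somatic cells (2.98, SE 0.25). KAS3, listed as a putative synthase, had 95.2 and 75.9 RPKM in gonidia, against 5.33 and 7.996 RPKM in somatic cells (3.80, SE 0.25, adjusted p = 6.77e-11). KAS1 held 83.0% and 83.9% of the synthase RPKM in gonidia, against 87.6% and 85.4% in somatic cells. KAS3 held 8.64% and 7.85% in gonidia, against 4.59% and 5.10% in somatic cells. The summed synthase counts were 8.45-fold higher in gonidia (3.08, SE 0.21, adjusted p = 1.7e-10).

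The 3 enzymes that complete each round of elongation had log2 fold changes between 3.31 and 3.78, within the range of the synthases (2.98 to 3.80). KAR1, the ketoacyl reductase, had 1004 and 917 RPKM in gonidia, against 67.0 and 84.8 RPKM in somatic cells (3.78, SE 0.22, adjusted p = 7.85e-12). HAD1, the dehydratase, had 128 and 137 RPKM in gonidia, against 14.01 and 15.1 RPKM in somatic cells (3.31, SE 0.23). ENR1, the enoyl reductase, had 719 and 697 RPKM in gonidia, against 58.5 and 69.1 RPKM in somatic cells (3.60, SE 0.22). In all 3 both gonidial libraries lay above both somatic ones, as for 57.2% of all tested genes in normalized counts. With the ketoacyl synthases summed, HAD1 was the lowest of the synthase enzymes in each library. The ketoacyl synthase sum, the highest, stood 8.60 and 7.04 times above HAD1 in gonidia, against 8.29 and 10.4 times in somatic cells. Taken singly, KAS2 and KAS3 lay below HAD1 in each library.

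**Figure D5:**
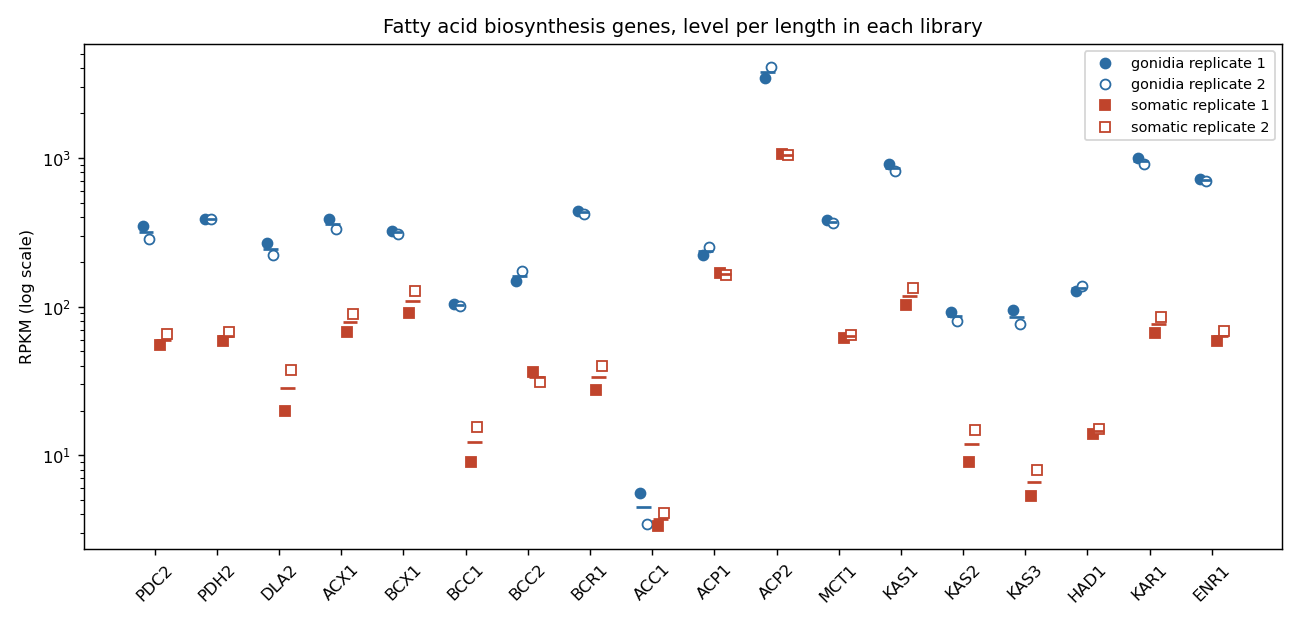
Each symbol is the RPKM of a fatty acid biosynthesis gene in a library on a log axis, in the order of the study's annotation. Gonidial replicates are blue circles and somatic replicates red squares (filled, replicate 1, open, replicate 2), with short lines at the cell-type means. Gonidial and somatic symbols are separate for each gene shown except ACC1, the lowest of them, and MCT2, at 3 counts or fewer, is left out. For 57.2% of all tested genes both gonidial libraries lay above both somatic libraries in normalized counts, and the reverse held for 33.4%.

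Both gonidial libraries lay above both somatic libraries in normalized counts for 17 of 18 fatty acid biosynthesis genes and for 17 of 20 CBB cycle genes, beside 57.2% of all tested genes. The somatic replicates differed in the same way for most of the fatty acid genes. In CPM, 15 of 18 were higher in somatic replicate 2, with a median ratio of 1.25 to somatic replicate 1. Of all genes tested with a count in both libraries, 8439 of 12468 were higher in somatic replicate 2, with a median ratio of 1.17. Of the CBB cycle genes 7 of 20 were higher in somatic replicate 2, with a median ratio of 0.933. The gap between replicates was small beside the 7.26-fold median difference between cell-types in fatty acid biosynthesis. In the CBB cycle, where the median was 2.31-fold, the calls of RBCS1 and CP12 were among those that changed when single libraries were left out.

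Other carbon and chloroplast lists of the study give a frame for these counts. Of 21 tested starch biosynthesis genes, the other store of fixed carbon in green algae, 16 were called gonidial and 0 somatic, with a median log2 fold change of 1.36, and 10 with TMM normalization. Of 38 tested core photosynthesis genes with a single locus, 22 were called gonidial and 0 somatic, with a median of 1.03, and 3 with TMM normalization. Over all tested genes 46.7% were called gonidial and 26.0% somatic, and with TMM normalization 38.0% and 32.2%. The CBB cycle median of 1.21 lay between these medians, and that of fatty acid biosynthesis, 2.86, above both. Of 8 tested genes of fatty acid beta-oxidation, which breaks fatty acids down, 1 was called gonidial and 7 somatic, with a median of -1.49, and 0 gonidial and 7 somatic with TMM normalization. The median was thus on the other side of 0 from that of fatty acid biosynthesis, also with TMM normalization (2.27 for biosynthesis and -2.09 for beta-oxidation).

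Isoforms of member enzymes that the study places in other pathways, together with DLD2, had log2 fold changes between 0.36 and 4.06. GAP2 had 62.8 and 59.7 CPM in gonidia, against 3.69 and 4.27 CPM in somatic cells (4.06, SE 0.28, adjusted p = 8.5e-11), where its CBB cycle counterpart GAP3 was at -0.08. DLD2 is a dihydrolipoamide dehydrogenase, the E3 subunit of complexes such as pyruvate dehydrogenase, and no member encodes this subunit. DLD2 had 1881 and 1575 CPM in gonidia, against 229.7 and 302 CPM in somatic cells (2.82, SE 0.21). DLA1, at 1.28 (SE 0.22), and PGK2, at 1.28 (SE 0.57) with 28 and 9 counts in gonidia against 5 and 12 counts in somatic cells, were called gonidial with the library sizes of the methods but not with TMM normalization. PDC1 (0.92, SE 0.22), FBA4 (0.86, SE 0.31) and GAP1 (0.36, SE 0.21) were not called. In all, 4 of these 7 genes were called gonidial, beside 46.7% of all tested genes. With TMM normalization or DESeq2 size factors 2 of 7, GAP2 and DLD2, were called gonidial, beside 38.0% and 36.2%.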

How the data were processed

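RNA was poly(A)-selected and sequenced as single-end reads of 50 bases from 2 gonidial and 2 somatic preparations. The authors trimmed the reads with Trimmomatic, aligned them with STAR to the V. carteri assembly of version 2, and assigned uniquely mapped reads to merged gene models with HTSeq. The deposited values are these counts, whole numbers without normalization. The strand setting of the counting is not given in the sources used here, so reads of overlapping antisense genes cannot be told apart.

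Members and gene lists were taken from the study's annotation tables by locus identifier, and members, lists and tests were chosen with earlier results of these data known. Library size was the sum of counts of all genes below the 0.3% upper quantile. Genes without counts, and after that the 10% of genes lowest in mean normalized count, were left out. Counts were tested with edgeR 4.0.16 (R 4.3.3; glmQLFit and glmQLFTest, cell-type as the only term), on all 4 libraries, with 2 residual and 17.1 prior degrees of freedom and a common dispersion of 0.0316. The study used DESeq2, here (version 1.42.0) an alternative. SEs were derived from the log2 fold change and its F statistic. Counts of paralogs were also summed to a single entry and fitted again.

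RPKM was computed from counts, library totals and gene model lengths between 753 and 8165 bases. The lengths were worked back from the study's own RPKM columns and the counts, and the gonidial and somatic estimates agreed to a ratio between 0.999999 and 1.00001.

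All 39 loci are in the counts and medians, and the values of 1 CBB cycle gene are not reported here. Values per library are given for every paralog, for the members with the largest and smallest changes, for those whose call or sign depends on the scaling and, beyond this rule, for the other members reported. Alternatives were TMM normalization, plain totals, DESeq2 size factors, the Wald test of DESeq2, glmTreat against 2-fold, other low count filters, the replicate number as a term, and each library left out in turn. The edgeR, glmTreat and DESeq2 fits were tried on simulated counts with known changes, with the library sizes of the methods only. The choice of scaling was not tested in this way. No sequence or genome position is given, since no sequence of the study's genome version was used here. Figures were drawn with matplotlib 3.10.9.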

Additional observations from a re-analysis of the deposited data

How the results depend on the processing

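Most changes came with the scaling of the libraries. The 14 CBB cycle genes called gonidial became 8 with TMM normalization, 7 with DESeq2 size factors and 8 with glmTreat against a 2-fold change, and the count of those called somatic became 1 (RBCS1) with TMM normalization, DESeq2 size factors and plain totals. The CBB cycle median became 0.61 with TMM normalization and 0.50 with DESeq2 size factors, and the fatty acid biosynthesis median 2.27 and 2.15. The summed RBCS value became 0.67 and 0.56 and was no longer called. With DESeq2 size factors PGK1 turned to -0.027, PRK1 to -0.071, ACP1 to -0.064 and ACC1 to -0.33, and with TMM normalization ACC1 turned to -0.21. Leaving out each library in turn, the fatty acid biosynthesis median ranged between 2.69 and 2.98, and the CBB cycle median between 1.11 and 1.26. CP12 ranged between 0.46 and 1.08, on both sides of 2-fold, and RBCS1 between -1.19 and -0.50. Over the same fits GAP3 ranged between -0.26 and 0.13, FBA3 between -0.24 and 0.072 and the aldolase sum between -0.20 and 0.11, all highest without somatic replicate 1, and the aldolase sum was also above 0 without gonidia replicate 1 (0.016). In counts not divided by length, RBCS1 held 12.0% of the small subunit pool in gonidia. Of the counts left after removal of the upper 0.3% quantile, the CBB cycle made up 11.1% in gonidia and 8.09% in somatic cells, and fatty acid biosynthesis 2.51% and 0.411%. Where no value or construction shows it, the cause was not tested.

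The replicate numbers were not taken to pair gonidial with somatic libraries, since each culture gave a single cell-type and the deviations of same-numbered libraries had a correlation of -0.0392 across genes. With the replicate number as a block the CBB cycle median was 1.20 and the fatty acid biosynthesis median 2.87, with 14 and 16 genes called gonidial, and no call of a member changed. The DESeq2 Wald test, no filter on low counts and filterByExpr changed the call of 0 of the 38 tested members, and a minimum of 10 counts in every library that of 0 of 37, RBCS4 having dropped out. Depth limits MCT2 in every library, at 3 counts or fewer, and RBCS4 in the somatic libraries, at 5 and 11 counts.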
